A study of Mus musculus with 8 samples.

Results

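The genes described here encode the nuclear part of oxidative phosphorylation, the 4 respiratory chain complexes and the ATP synthase of the inner mitochondrial membrane. They were taken from a table of read counts in mouse hippocampus as the rows with 80 or more reads over the 8 libraries whose symbols begin with Nduf and a subunit letter, Sdh, Uqcr, Cyc1, Cox4 to Cox8 or Atp5, 82 of 24527 rows. Of 85 rows with such symbols, Cox8b (43 reads), Cox8c (0) and Ndufs5 (0) fell below the minimum. Complex I held 34 of them, complex II 4, complex III 9, complex IV 18 and complex V, the ATP synthase, 17. Ndufa4 and Ndufa4l2 were placed in complex IV, where the Ndufa4 protein is known to reside, and Cox7a2l, Atp5s and Atp5sl met the rule although they are not structural subunits. All mice were wild-type C57BL/6J males sampled at 20 weeks. The 4 control mice came from mothers fed a low-phytoestrogen diet through gestation and lactation, and the 4 BPA mice from mothers fed that diet with 50 mg of bisphenol A, a monomer of polycarbonate plastic with estrogen-like activity, per kg; the latter are also called exposed mice. Both groups ate the control diet from weaning on postnatal day 21. Values come from whole hippocampus, so a smaller share of one cell type and less RNA per cell cannot be told apart.

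Complex I takes electrons from NADH and complex II from succinate, complex III passes them on to cytochrome c, and complex IV gives them to oxygen. The proton gradient that complexes I, III and IV build drives the ATP synthase. Neurons depend on this route for most of their ATP, and the subunits come from 2 genomes: the nuclear genes here and a few genes of the mitochondrial DNA, which have no rows under mitochondrial symbols in the table.

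Library totals ran from 27.1 to 40.8 M counts (M, 1000000) in controls and from 43.1 to 54.0 M in BPA mice, so exposure and depth cannot be told apart by group. Dentate granule cell markers summed to 357 to 505 CPM (counts per 1000000, scaled between libraries), CA1 markers to 183 to 253 CPM and CA3 markers to 50.6 to 59.0 CPM, so markers of the labelled tissue were present in all 8 libraries. The 5 dentate markers all had a higher BPA mean (controls 357 to 505 CPM, exposed mice 462 to 502 CPM) with none called. Of the 3 CA1 markers 0 had a higher BPA mean (controls 183 to 253 CPM, exposed mice 197 to 218 CPM), as did 0 of 7 ependymal and 0 of 12 choroid plexus markers, again with none called. The part of these markers in the results was not tested. Choroid plexus markers summed to 3119 CPM in control replicate 2 against 213 to 310 CPM in the other controls, and to 832 CPM in BPA replicate 3 against 169 to 363 CPM in the other BPA mice. Without these libraries together, 49 of the 82 genes were higher in BPA mice, in place of 54.

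Some promoters of these genes hold short motifs that the choice of genes did not use. Windows from 250 bases before to 50 bases after the start site (RefSeq, GRCm38.p6) were given for 67 of the 82 genes, and 4 motifs of factors known for respiratory genes were searched on both strands. The NRF1 motif, GCGCA and GCGC with any base between them, was in 15 of the 67 windows (22.4%) against 4.6% of all 32851 windows. The YY1 motif AANATGGC was in 16 (23.9% against 6.05%), 11 of them among the 30 complex I windows and 1 among the 13 of complex IV. The ETS motif CCGGAAGT, which GABPA binds, was in 5 (7.46% against 3.89%) and the ERR motif TCAAGGTCA in 2 (2.99% against 0.423%). No matches of different motifs shared bases in these windows. Of the 67 windows, 34 held at least 1 of the 4 motifs (50.7% against 13.7%). The windows compared can be several per gene and were not limited to genes read here. With the first window of each gene, the shares were 4.78% for NRF1, 6.23% for YY1, 4% for ETS and 0.407% for ERR. A match is a run of letters and was not tested as a binding site. The 4 stretches below are the 250 bases before the start site (mm10), 5′ to 3′ on the strand of the gene, with matches in capitals; the ETS and YY1 matches lie on the opposite strand. Atp5e is shown as the gene with the smallest p of the exposure comparison, and the others as the genes with the smallest p that hold an NRF1, ETS or YY1 match before the start. Atp5e (chr2:174464102-174464351, minus strand) holds none of the 4 motifs. Ndufa5 (chr6:24527691-24527940, minus strand) holds an NRF1 match that begins 26 bases before the start. Atp5h (chr11:115419920-115420169, minus strand) holds an NRF1 match from 141 and an ETS match from 39 bases before the start. Ndufb10 (chr17:24724424-24724673, minus strand) holds a YY1 match from 198 bases before the start.
Atp5e: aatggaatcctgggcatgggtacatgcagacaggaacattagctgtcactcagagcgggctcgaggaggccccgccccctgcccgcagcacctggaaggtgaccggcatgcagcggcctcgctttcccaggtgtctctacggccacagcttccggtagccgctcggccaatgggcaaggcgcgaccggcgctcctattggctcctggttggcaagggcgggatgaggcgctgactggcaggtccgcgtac
Ndufa5: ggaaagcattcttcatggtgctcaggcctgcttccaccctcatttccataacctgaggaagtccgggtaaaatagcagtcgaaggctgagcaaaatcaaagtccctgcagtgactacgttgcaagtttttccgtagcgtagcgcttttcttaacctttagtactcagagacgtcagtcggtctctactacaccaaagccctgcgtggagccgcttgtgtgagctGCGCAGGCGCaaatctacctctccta
Atp5h: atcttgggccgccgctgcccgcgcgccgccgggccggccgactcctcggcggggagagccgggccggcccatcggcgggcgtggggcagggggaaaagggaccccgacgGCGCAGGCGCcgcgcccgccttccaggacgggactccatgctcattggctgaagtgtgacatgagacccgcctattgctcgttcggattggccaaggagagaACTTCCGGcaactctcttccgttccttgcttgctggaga
Ndufb10: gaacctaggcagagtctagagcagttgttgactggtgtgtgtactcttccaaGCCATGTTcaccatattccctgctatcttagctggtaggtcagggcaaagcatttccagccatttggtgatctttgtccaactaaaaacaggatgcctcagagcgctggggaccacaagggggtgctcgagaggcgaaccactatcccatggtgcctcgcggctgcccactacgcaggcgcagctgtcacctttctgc

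None of the 82 genes passed an adjusted p of 0.05 (edgeR quasi-likelihood test, Benjamini-Hochberg over 15434 genes, adjusted p 0.955 to 0.999), and neither did any other gene tested (0% called; 698 genes had an unadjusted p under 0.05). DESeq2 called 7 genes, none of them among the 82. All 82 passed the filter on low counts. The differences were small: log2 fold changes ran from -0.36 to 0.24, the median standard error was 0.061, and 78 genes had a 95% interval that stayed inside 1.5-fold in both directions. At an unadjusted p of 0.05, 8 genes were higher in BPA mice against 2.22% of all genes, and 1 was lower against 2.3%. Over both directions 4.52% of all genes reached that level. Between 2 and 9 of the 82 genes reached it when 1 library was left out, with 2 left without BPA replicate 2 and 5 without control replicate 1, BPA replicate 1 or BPA replicate 4. Under the other alternatives 3 to 10 of the 82 did. The count was 3 with log2 library total as a covariate (523 of all 15434 genes) and 10 with a replicate block (498 of all). It was 6 with each library's trend on length and GC content taken out (655 of all).

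More of these genes were higher than lower in BPA mice. With all libraries 54 of 82 had a log2 fold change above 0 (median 0.025), where 50% of all genes did. Complex I had 28 of 34 higher (median 0.046), or 28 of 36 (0.044) with Ndufa4 and Ndufa4l2 counted there, and complex V 13 of 17 (0.027). The 17 include Atp5s (-0.049) and Atp5sl (0.11, named Dmac2 by GENCODE), which are not structural subunits. In complex III 5 of 9 were higher (0.037) and in complex II 2 of 4 (-0.0070). Complex IV stood on the other side, with 6 of 18 higher (-0.018). Within complex I, all 10 Ndufs and Ndufv genes, which include the electron-carrying core subunits, were above 0 (0.0069 to 0.11), as were 9 of 12 Ndufa, 8 of 10 Ndufb and 1 of 2 Ndufc genes. With all libraries all 5 genes of the catalytic F1 part of complex V were above 0 (0.017 to 0.24). The 10 Ndufs and Ndufv genes were 7 to 10 above 0 under the alternatives, with 7 without control replicate 3, and the 5 F1 genes 2 to 5, with 2 without control replicate 2 and BPA replicate 3 together. The difference in direction between complexes was not tested.

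**Figure D1:**
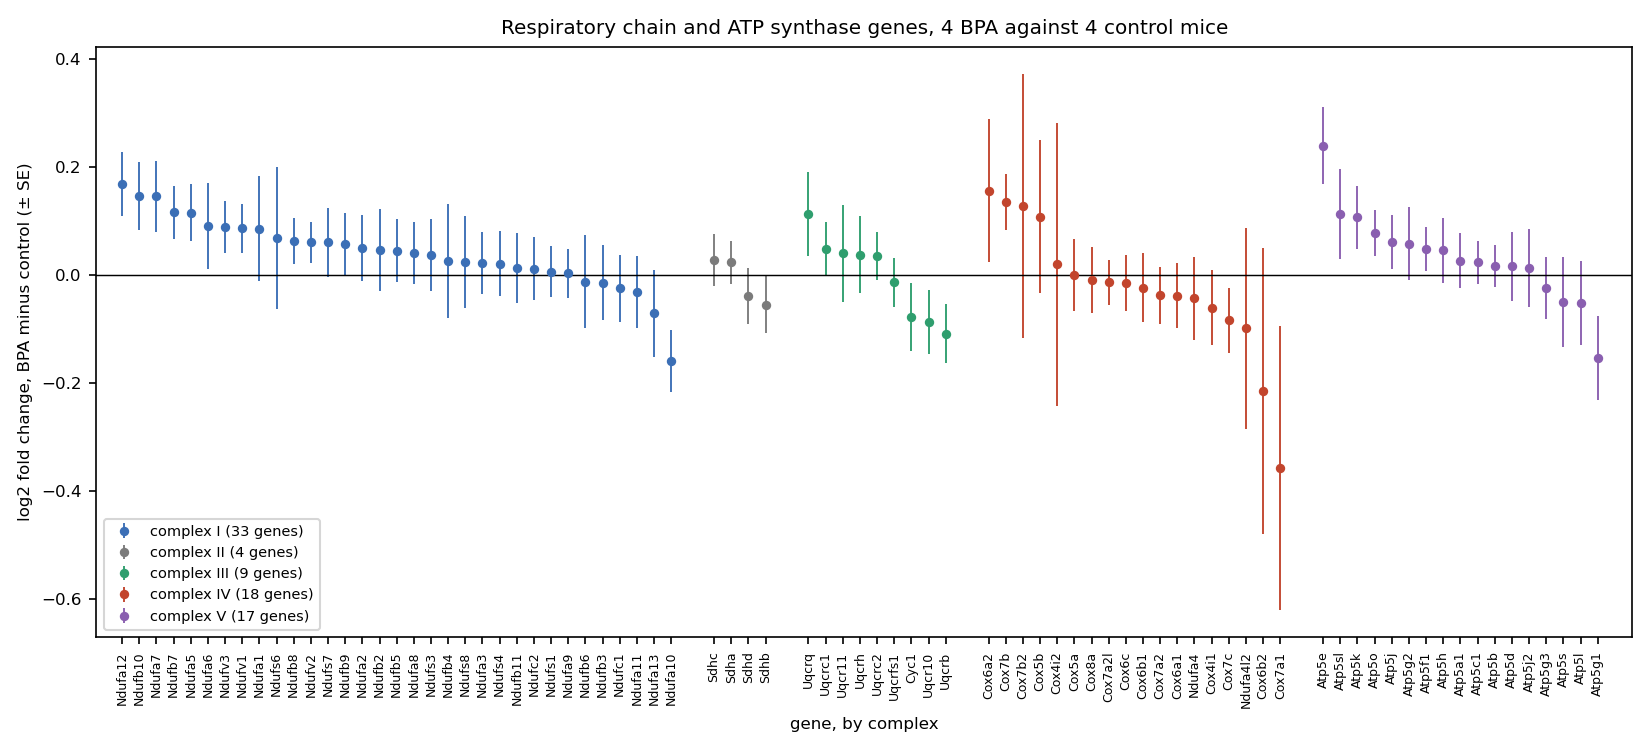
Log2 fold change of 81 of the 82 genes (vertical axis, BPA minus control; points are estimates of the edgeR fit, bars are standard errors), ordered by complex and size. In complex I 27 of 33 points lie above 0, in complex IV 6 of 18, and Atp5e is highest at 0.24.

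These counts moved with single control libraries. The genes as a group were highest in control replicate 4, the library with the lowest total. Its median deviation from each gene's mean log2 CPM over 8 libraries was 0.057, against -0.049 to -0.024 in the other controls and 0.0019 to 0.020 in BPA mice. For complex I the controls ran from -0.11 in replicate 3 to 0.074 in replicate 4, and the BPA mice from 0.00045 to 0.029, inside the range of the controls. For complex V the controls were at -0.036, -0.026, -0.024 and 0.032 in replicates 1 to 4 and the BPA mice at 0.013, 0.018, 0.037 and 0.039. The library medians of complex IV had a mean of -0.0075 in controls and 0.0015 in BPA mice. Without control replicate 4, 68 of the 82 genes were higher in BPA mice, among them 32 of 34 in complex I and 13 of 18 in complex IV. Without control replicate 3 the counts were 46 of 82, 22 of 34 and 6 of 18, and the median of complex III was -0.023.

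**Figure D2:**
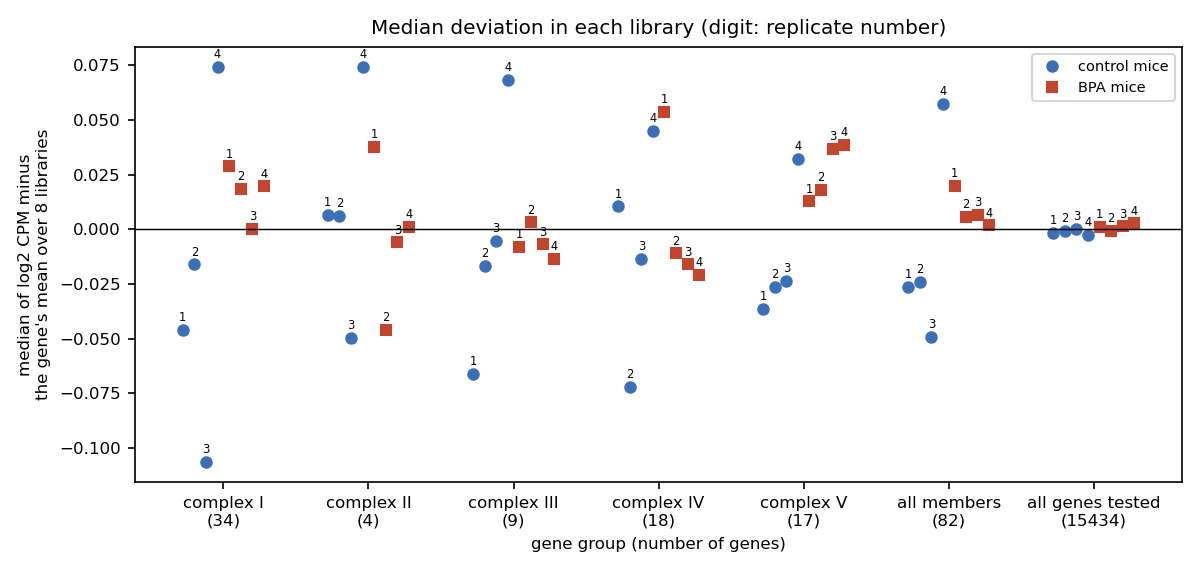
Median over the genes of a complex of log2 CPM minus the gene's mean over 8 libraries (vertical axis) in each control mouse (circles) and BPA mouse (squares), with replicate numbers. Control replicate 4 is the highest library over all 82 genes at 0.057 and control replicate 3 the lowest at -0.049, with the 4 BPA mice between them.

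Gene length moved with the direction. The 82 genes had a median exon length of 849.5 bases against 3123 bases over all genes tested. Among other genes, the share higher in BPA mice was 54.9% under 600 bases, 58.7% from 600 to under 1000, 55.9% from 1000 to under 2000, 52.5% from 2000 to under 4000 and 42.5% above. The 82 genes gave 12 of 22, 19 of 28, 17 of 24, 6 of 7 and 0 of 1 in the same classes. With each library's trend on length and GC content taken out, 43 of 82 were higher (52.4%, against 49.6% of all genes), 22 of 34 in complex I, 5 of 18 in complex IV and 10 of 17 in complex V, and the median was 0.0058. With log2 library total as a covariate the count was 65 of 82 (79.3%, against 52.7% of all genes), with 30 of 34 in complex I and 11 of 18 in complex IV. Every BPA library had a higher total than every control library, so this fit cannot separate depth from exposure.

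**Figure D3:**
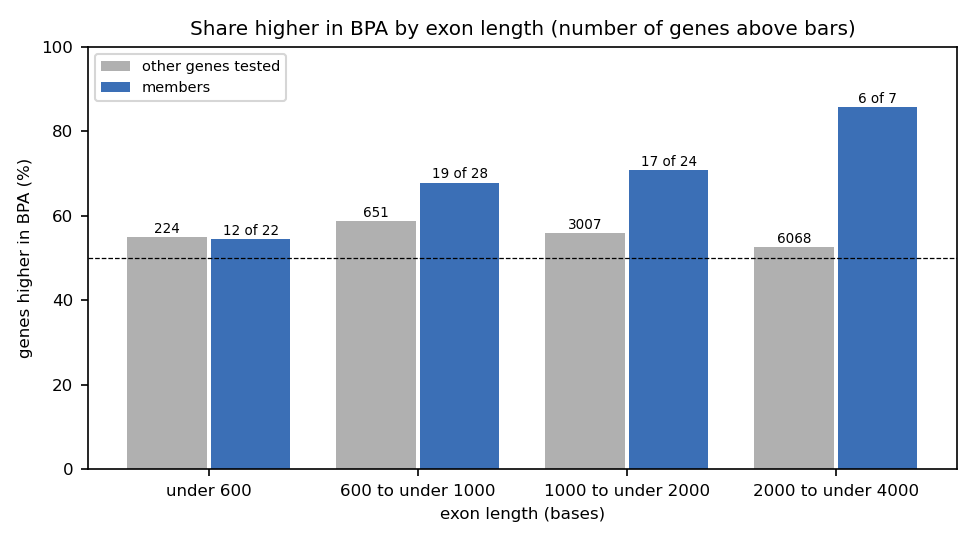
Share of genes higher in BPA mice (vertical axis, percent) by exon length (horizontal axis, bases), for other genes tested (grey, number of genes above) and the 82 genes (blue, count above); the class above 4000 bases, with 1 of the 82 genes, is not drawn. Other genes were higher in 58.7% of cases from 600 to under 1000 bases and the respiratory genes in 19 of 28.

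Among the ATP synthase genes Atp5e, the epsilon subunit of the central stalk of F1 (chromosome 2, 174461072 to 174464105), had the smallest p of all 82. It was at 17.7, 17.3, 20.5 and 18.9 CPM in control replicates 1 to 4 and at 20.3, 24.4, 21.5 and 21.6 CPM in BPA replicates 1 to 4. The groups overlapped by 1 animal on each side: control replicate 3 lay above BPA replicate 1. The means were 18.6 ± 1.42 CPM and 21.9 ± 1.74 CPM (SD, n = 4 each), a log2 fold change of 0.24 ± 0.072 or 1.18-fold (95% interval 1.06 to 1.32; edgeR adjusted p = 0.955). It was between 0.18 and 0.29 under every alternative run. The other F1 genes were nearer to 0: log2 fold changes were 0.027 ± 0.051 for Atp5a1, the alpha subunit, 0.017 ± 0.039 for Atp5b, the beta subunit, 0.024 ± 0.0395 for Atp5c1, the gamma subunit, and 0.017 ± 0.063 for Atp5d, the delta subunit. Atp5d was at -0.034 without BPA replicate 1 and Atp5a1 at -0.0044 without control replicate 1. Atp5k, a small membrane subunit, was at 62.0 ± 4.77 CPM in the control mice and 66.8 ± 3.07 CPM in exposed mice (0.11 ± 0.058).

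In all, 6 genes of complex I were higher at an unadjusted p of 0.05 and 1 was lower. Ndufa12, an accessory subunit of the matrix arm (chromosome 10, 94198720 to 94221443), was at 70.6, 63.6, 67.9 and 69.4 CPM in the control mice and 76.2, 85.1, 71.1 and 72.9 CPM in exposed mice. Every BPA mouse lay above every control mouse, the closest pair being control replicate 1 and BPA replicate 3. The log2 fold change was 0.17 ± 0.059 (edgeR adjusted p = 0.955), 0.11 without BPA replicate 2 and 0.086 with library total as a covariate. Of the 50-base runs of its longest transcript (windows), 17.2% are shared with the annotated gene Gm15920, which leaves its count less certain. Ndufb7, a membrane arm subunit on the intermembrane side, was also without overlap, at 28.1, 28.6, 26.9 and 27.97 CPM in the control mice and 30.4, 32.0, 28.7 and 29.8 CPM in exposed mice (0.12 ± 0.049, or 0.049 with library total as a covariate). The third gene without overlap was Ndufv2, an electron-carrying core subunit, at 137.2, 139.8, 136.6 and 140.7 CPM in the control mice and 143.3, 147.0, 146.9 and 141.0 CPM in exposed mice (0.061 ± 0.038). Among all genes tested 1.37% had every BPA library above every control library and 1.43% every one below. The 2 classes together held 2.79%. Of the 82 genes 3 were in the first class and 0 in the second.

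Another 3 higher genes of complex I overlapped between groups. Ndufb10, a membrane arm subunit, was at 132, 140, 137 and 156 CPM in the control mice and 141, 158, 162 and 166 CPM in exposed mice (0.15 ± 0.063). Control replicate 4 was the only control above BPA replicate 1. Ndufa7, a matrix arm subunit, was at 19.9, 17.4, 21.2 and 19.9 CPM in the control mice and 22.0, 22.5, 20.2 and 21.9 CPM in exposed mice (0.15 ± 0.066, or 0.092 without control replicate 2). Control replicate 3 lay above BPA replicate 3. Ndufa5, a matrix arm subunit whose promoter is printed above, was at 89.0, 96.9, 90.5 and 102.7 CPM in the control mice and 96.6, 105.5, 106.1 and 102.2 CPM in exposed mice (0.12 ± 0.053). BPA replicates 2 and 3 exceeded all controls for it.

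Ndufa10, an accessory subunit of the membrane arm related to nucleoside kinases (chromosome 1, 92439010 to 92473860), was the gene lower in BPA mice at that level. It was at 153, 156, 164 and 184 CPM in the control mice and 144.6, 144.8, 144.8 and 155 CPM in exposed mice. BPA replicate 4 lay inside the range of the controls and the other BPA mice lay below it. The log2 fold change was -0.16 ± 0.058 (edgeR adjusted p = 0.955), -0.10 without control replicate 4 and 0.0020 with library total as a covariate.

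**Figure D4:**
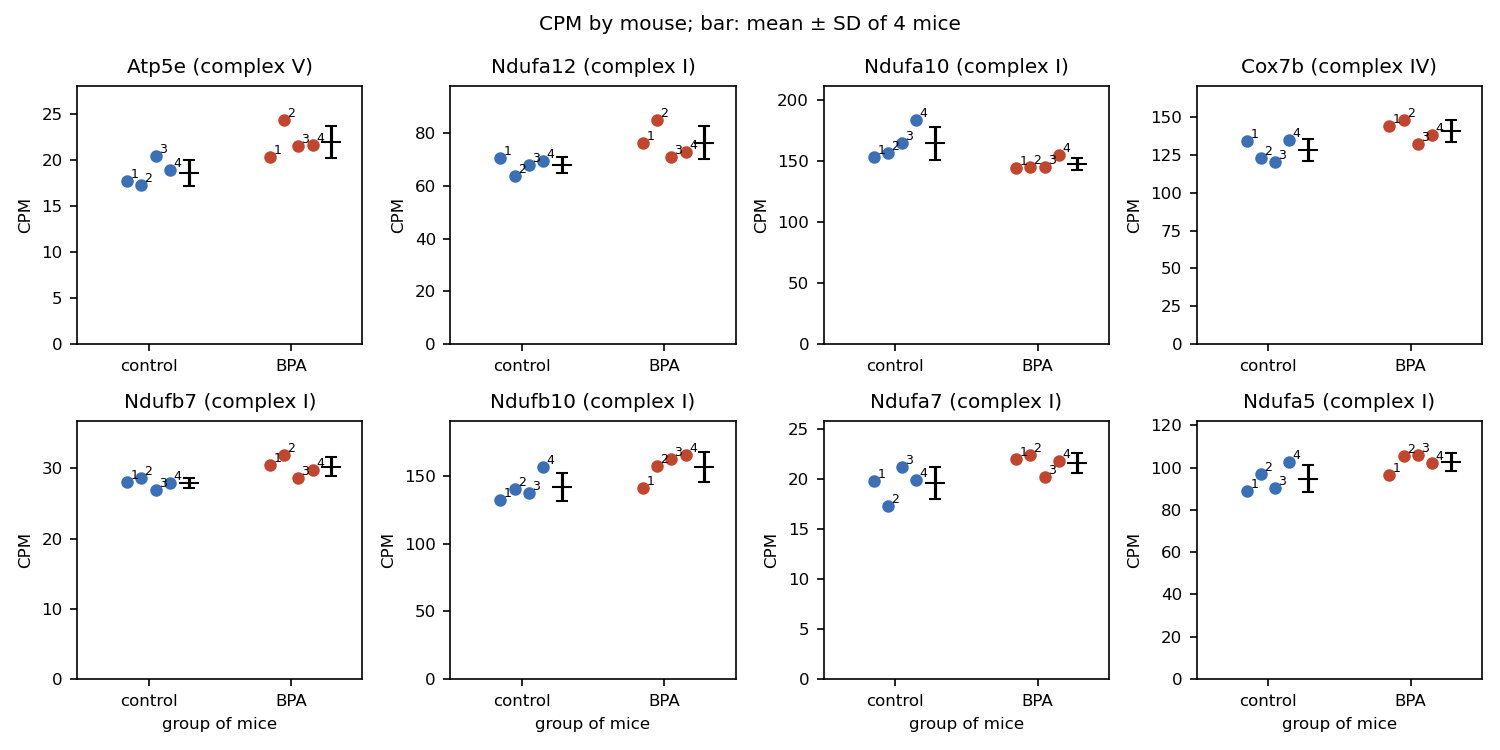
CPM (vertical axis) of 8 of the 9 genes with an unadjusted p under 0.05 in each control mouse (blue) and BPA mouse (red), with replicate numbers and mean ± SD of 4 mice. Of the 8, Ndufa12 and Ndufb7 have all 4 BPA mice above all controls, and Ndufa10 is the gene with a lower BPA mean.

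Complex II, which also belongs to the citric acid cycle, was close to even in every gene. Sdha, the flavoprotein, was at 390 ± 12.2 CPM in the control mice and 397 ± 3.99 CPM in exposed mice (0.024 ± 0.041). The iron-sulphur subunit Sdhb was at 52.3 ± 2.82 and 50.3 ± 2.57 CPM (-0.055 ± 0.053). The membrane anchors Sdhc and Sdhd had log2 fold changes of 0.028 ± 0.049 and -0.038 ± 0.052. In complex III the 3 genes with the smallest p lay on both sides of 0. Uqcrb was at 25.7 ± 1.68 CPM in the control mice and 23.8 ± 0.712 CPM in exposed mice (-0.11 ± 0.055), and without control replicate 4 its log2 fold change was -0.064. The Uqcrb row is less certain, since the gene overlaps Gm10767 on the opposite strand and shares 19.2% of its windows with copies. Uqcr10 was at 19.4 ± 0.988 and 18.3 ± 0.892 CPM (-0.087 ± 0.059, or -0.053 without BPA replicate 3), and Uqcrq at 58.7 ± 6.28 and 63.4 ± 5.11 CPM (0.11 ± 0.078, or 0.044 without control replicate 1). The 2 core proteins Uqcrc1 and Uqcrc2 were at 0.049 ± 0.050 and 0.037 ± 0.044, the Rieske protein Uqcrfs1 at -0.013 ± 0.045 and cytochrome c1, Cyc1, at -0.077 ± 0.062. Cyc1 was at -0.023 without control replicate 3 and Uqcrfs1 at 0.014 without control replicate 4, and with library total as a covariate they were at 0.050 and 0.049.

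In complex IV Cox7b, a small subunit (chromosome X, 106015700 to 106022450), was higher at an unadjusted p of 0.05. It was at 134, 123, 120 and 135 CPM in the control mice and 144, 148, 132 and 138 CPM in exposed mice. Only BPA replicate 3 lay within the range of the controls. The log2 fold change was 0.14 ± 0.052 (edgeR adjusted p = 0.955) and stayed between 0.096 and 0.16 under every alternative run. Cox7c was at 30.1 ± 1.99 CPM in the control mice and 28.4 ± 1.60 CPM in exposed mice (-0.084 ± 0.060, or -0.042 without control replicate 3), and 27.9% of its windows are shared with annotated copies. The widest spread among the 76 genes at 10 CPM or more was that of Cox5b, the zinc-binding subunit (chromosome 1, 36691449 to 36693681). It was at 327, 347, 526 and 411 CPM in the control mice and 366, 478, 512 and 380 CPM in exposed mice, a within-group CV of 19.6% where the median of the 76 was 6.38%. Its highest and lowest libraries, control replicates 3 and 1, differed 1.61-fold, and its log2 fold change of 0.11 ± 0.14 was 0.26 without control replicate 3 and 0.020 without BPA replicate 3. Of its windows, 25.9% are shared with the annotated gene Gm11273.

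Levels within a complex, taken per kb of exon (CPM per kb, mean of 8 libraries), differed far more than the groups did. In complex IV Cox5b was highest at 484 CPM per kb, above Cox6c at 227 and Cox8a at 182, and 13.0-fold above Cox5a at 37.2. The ranges over 8 libraries of the first and second did not overlap, whereas those of Cox8a and Cox4i1 (151) did. In complex V Atp5b (321) and Atp5a1 (218) led, followed by Atp5j (179) and Atp5k (174), whose ranges overlapped. Atp5c1 and Atp5d, which with Atp5e form the central stalk, were at 73.4 and 32.2, 4.37-fold and 9.97-fold below Atp5b. In complex I Ndufb10 was highest at 204, separate from Ndufb9 at 131, and Ndufb4 lowest at 15.9, with neighbours in the order from Ndufs1 (47.2) to Ndufb4 overlapping in range throughout. Ndufb4 shares 37.0%, Cox5b 25.9% and Ndufb9 23.4% of its windows with other annotated genes, so their levels and ranks are less certain. Sdha was at 136 against 45.3 for Sdhd, 44.9 for Sdhb and 11.96 for Sdhc. Uqcrh, the hinge protein of complex III, was at 172 against 57.8 for Uqcrc1, and Uqcr11 was lowest at 24.5. The exon length of Atp5g1 (2.95 CPM per kb) comes from a long transcript, so its level per length may be understated.

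**Figure D5:**
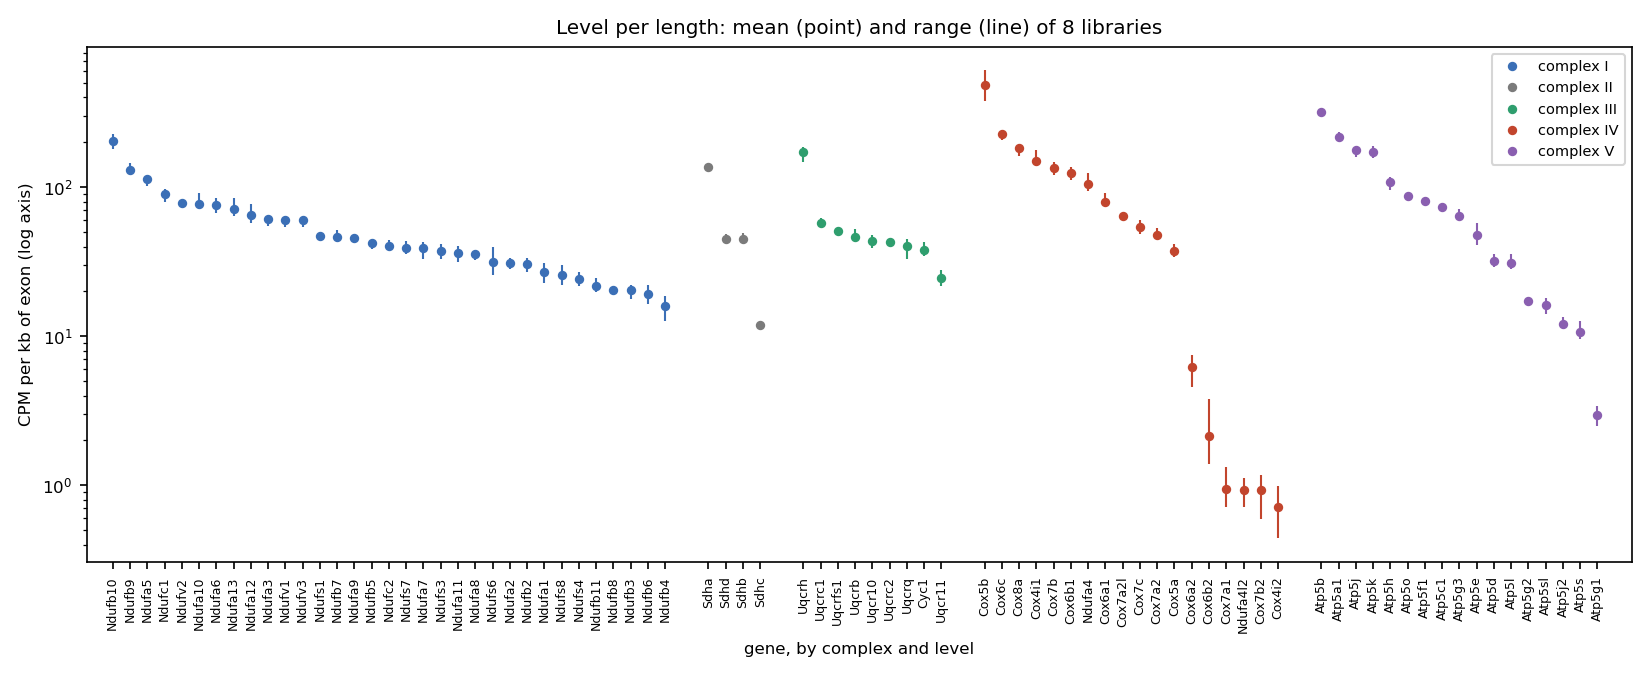
Level of 81 genes per kb of exon (vertical log axis, CPM per kb; points are means and lines ranges of 8 libraries), ordered within complexes. Cox5b is highest at 484, and within complex IV the tissue-restricted isoforms lie lowest, from 6.18 for Cox6a2 down to 0.715 for Cox4i2.

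Subunit isoforms known from muscle, testis or low-oxygen settings were read at low levels. Cox4i2, an oxygen-responsive isoform known from lung and pericytes, was at 0.516 ± 0.180 CPM in the control mice and 0.524 ± 0.0493 CPM in exposed mice, 211-fold below Cox4i1 per kb over all libraries. Ndufa4l2, a hypoxia-inducible relative of Ndufa4, was at 0.900 ± 0.0577 and 0.837 ± 0.156 CPM. The 8 pericyte and mural markers summed to 213 to 232 CPM in the control mice and 194 to 216 CPM in exposed mice, and their part in these values was not tested. Cox6a2, the muscle form of Cox6a that parvalbumin interneurons also express, was the most abundant at 3.76, 3.94, 5.10 and 3.09 CPM in the control mice and 4.67, 4.54, 4.22 and 4.31 CPM in exposed mice, 13.0-fold below Cox6a1 per kb. Cox6a2 and Ndufa4l2 overlap Itgad and Shmt2 on the opposite strand, so their low counts may hold reads of those genes. Parvalbumin interneuron markers summed to 217 to 238 CPM in the control mice and 218 to 230 CPM in exposed mice. Most of this sum was Kcnc1, at 174 to 194 CPM over all libraries, whereas Pvalb was at 16.9 to 20.3 CPM. The part of these cells in the Cox6a2 values was not tested. Cox7a1, the muscle form of Cox7a, was at 0.416 ± 0.0977 and 0.332 ± 0.0644 CPM. The 4 skeletal muscle markers summed to 3.71 to 4.33 CPM in the control mice and 3.64 to 4.27 CPM in exposed mice. Of these, Acta1 was at 3.11 to 3.67 CPM over all libraries, and the muscle creatine kinase Ckm reached at most 0.152 CPM. The part of muscle RNA in the Cox7a1 values was not tested. The testis isoforms Cox6b2 and Cox7b2 were at 1.49 ± 0.693 and 1.31 ± 0.208 CPM and at 0.482 ± 0.0198 and 0.523 ± 0.140 CPM, and Cox6b2 was highest in control replicate 2 (2.48 CPM). Cox7a1 had 119 reads over 8 libraries, the fewest of the 82, and Cox8b, with 43, was the nearest row below the minimum.

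The balance between isoforms was compared as log2 ratios of CPM within each mouse, 6 ratios in all. None passed a two-sided exact permutation test (p = 0.257 to 0.714, 0.686 to 0.714 after Benjamini-Hochberg adjustment over the 6; the smallest p that 4 against 4 allows is 0.0286), and the groups overlapped for every ratio. Cox6a2 over Cox6a1 was -3.55 ± 0.377 in controls and -3.33 ± 0.122 in BPA mice (SD, n = 4 each; exact permutation p = 0.343). Without control replicate 3 the difference was 0.35 (exact permutation p = 0.0286, the smallest that 4 against 3 allows) in place of 0.22. Cox7a1 over Cox7a2 was -6.12 ± 0.382 and -6.37 ± 0.247. The 3 genes of the membrane-rotor c subunit, whose mature proteins are the same, were led by Atp5g3 at 46.7 ± 3.29 CPM in the control mice and 45.9 ± 2.36 CPM in exposed mice. Atp5g1 was at 14.8 ± 0.994 and 13.4 ± 1.24 CPM (-0.15 ± 0.078) and Atp5g2 at 12.3 ± 0.640 and 12.8 ± 0.742 CPM (0.059 ± 0.067). The log2 ratio of Atp5g1 to Atp5g3 was -1.65 ± 0.163 in controls and -1.78 ± 0.157 in BPA mice, and that of Atp5g2 to Atp5g3 was -1.92 ± 0.121 and -1.84 ± 0.153. Atp5g1 shares 10.6% and Atp5g2 14.8% of its windows with other annotated genes.

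Other genes of the pathway, outside the 82, gave no call either. Among carriers and subunits that the rule missed, 4 of 6 were higher in BPA mice (median 0.0047). Atpif1, the inhibitor that binds the ATP synthase and curbs ATP hydrolysis, was at 111, 102, 118 and 111 CPM in the control mice and 122, 142, 121 and 123 CPM in exposed mice. Every BPA mouse exceeded every control for it, as for 1.37% of all genes tested. The log2 fold change of Atpif1 was 0.20 ± 0.060 (edgeR adjusted p = 0.955), or 0.14 without BPA replicate 2. In the lists below, 1 assembly factor had every BPA mouse below every control, as had 1.43% of all genes. There, 1 coenzyme Q gene and 1 citric acid cycle or pyruvate dehydrogenase gene had every BPA mouse above. Usmg5, a small ATP synthase subunit, was at -0.12 ± 0.075 and Cycs, cytochrome c, at -0.041 ± 0.060. Of 44 assembly factors tested 25 were higher (median 0.0066), and the smallest unadjusted p were those of Pet100, a complex IV assembly factor (0.16 ± 0.055), and Ndufaf2, a complex I chaperone related to Ndufa12 (0.14 ± 0.064). Of 13 genes of coenzyme Q synthesis 6 were higher (-0.0029), with Coq5 at 39.9 ± 1.04 CPM in the control mice and 43.9 ± 2.36 CPM in exposed mice (0.13 ± 0.049) and Pdss2 at -0.053 ± 0.071. Citric acid cycle and pyruvate dehydrogenase genes had 11 of 16 higher (0.031), with Dlst at 0.056 ± 0.037 and Pdhb at 0.054 ± 0.039. Regulators of mitochondrial biogenesis had 4 of 12 higher (-0.016), with Esrra, an estrogen-related receptor, at -0.10 ± 0.071 and Nrf1 at 0.088 ± 0.066. Esrra was at -0.043 without control replicate 3 and at 0.054 with library total as a covariate, where Cycs (0.051) and Pdss2 (0.026) were also above 0. Pdss2 was at -0.014 without control replicate 4 and Cycs at 0.0046 without BPA replicate 2. The lowest adjusted p in these lists was 0.955. With library total as a covariate, 35 of the 44 assembly factors, 10 of the 13 coenzyme Q genes and 14 of the 16 citric acid cycle and pyruvate dehydrogenase genes were above 0.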

How the data were processed

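RNA from 8 hippocampi was selected for polyadenylated transcripts and made into stranded libraries, per the labels' protocols. The authors deposited raw read counts per gene symbol (refGene, per the file headers). The submitters' processing notes name STAR 2.3.0e, featureCounts 1.5.0, Trimmomatic 0.32 and DESeq2, with mm10. The sources used here give neither the strand setting nor the handling of reads with several matches. Counts of genes that overlap on the opposite strand (21 of the 82) or share sequence with copies are therefore less certain. Of the named genes with values, Uqcrb, Cox6a2, Ndufa4l2, Uqcrc2, Atp5a1, Cox5a, Ndufs1 and Atp5j have such an overlap. Columns were matched by the library code in the sample titles. The 4 mice of a group are called independent replicates; litters are not given, so p-values cover the spread between these animals only.

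Genes were filtered with filterByExpr, scaled by TMM and tested in edgeR 4.0.16 under R 4.3.3 (quasi-likelihood, all 15434 genes), group as the only term, two-sided, with Benjamini-Hochberg adjustment at 0.05. The script was tested on simulated data. Standard errors come from the test statistic, and intervals are 95%. Library totals of 27.1 to 54.0 M counts gave a median standard error of 0.0746 (log2) over all genes. Ratios used log2 CPM with a prior count of 2. Alternatives were DESeq2 1.42.0, its size factors in edgeR, limma-voom (limma 3.58.1), no filter, each library left out, a replicate block, library total as a covariate, thinned libraries and an offset for length and GC content. Positions and exon lengths come from GENCODE M21 (GRCm38, the mm10 assembly), and 98.5% of symbols matched. No 2 libraries of a group agreed within counting noise (12 pairs, chi-square over its degrees of freedom 10.2 to 25.0).

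The genes, lists and rules were chosen with earlier results of these data known. Named are genes with an unadjusted p under 0.05, the 3 smallest p in each complex (all 4 in complex II), the highest and lowest level per length, isoform pairs and the 2 smallest p in each other list; Ndufv2, Cox6b2, Cox7b2, Cycs and other genes named beside these to complete a subunit group were chosen after their values were seen. Of the 82 genes, 1 is counted but not reported by name.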

Additional observations from a re-analysis of the deposited data

Results flagged for a closer look

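A single animal lay apart from the other 3 of its group in 4 of the 80 groups of 4 looked at (34 named genes and 6 ratios), where chance sets apart about 1 in 20. Ndufa10 was at 155 CPM in BPA replicate 4 against 144.6 to 144.8 CPM in the other BPA mice. Sdhb was at 54.1 CPM in BPA replicate 1 against 48.6 to 49.5 CPM. Uqcr10 was at 16.9 CPM in BPA replicate 3 against 18.6 to 18.8 CPM. Ndufa4l2 was at 0.986 CPM in control replicate 2, the library with the most choroid plexus RNA, against 0.865 to 0.876 CPM in the other controls.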

How the results depend on the processing

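None of the 82 genes was called under any of the 18 alternatives, and 18 of the 34 named genes kept their sign in all of them. DESeq2 called 7 of 20777 genes, none of the 82. Of the 82 genes, 43 (length and GC offset) to 68 (without control replicate 4) were higher in BPA mice. Complex IV had 4 to 13 of 18 higher when 1 library was left out and 11 with library total as a covariate, complex II had 1 of 4 higher in thinned libraries, and the complex III median was -0.00051 with the offset. The fit with library total as a covariate cannot separate depth from exposure. Named genes took the opposite sign (log2 scale) at the following values, and the cause was not tested. With library total as a covariate they were Ndufa10 0.0020, Uqcrb 0.013, Uqcrh -0.11, Cox4i1 0.042, Cox4i2 -0.080, Cox6a1 0.12, Cox7a2 0.065, Cox7c 0.039, Ndufa4 0.11 and Atp5g3 0.10. With the offset they were Ndufb4 -0.0012, Uqcr11 -0.00051, Cox4i2 -0.018 and Atp5b -0.0025. With thinning, Sdhc was at -0.023, and without control replicate 2 and BPA replicate 3 together Cox4i2 was at -0.12, Cox5b at -0.046 and Ndufa4l2 at 0.044. When 1 library was left out, the ranges were -0.063 to 0.088 for Ndufb4, -0.025 to 0.081 for Uqcrh, -0.10 to 0.014 for Cox4i1, -0.17 to 0.25 for Cox4i2, -0.071 to 0.021 for Cox6a1, -0.062 to 0.0038 for Cox7a2, -0.099 to 0.033 for Ndufa4 and -0.057 to 0.024 for Atp5g3. For the ratios they were -0.018 to 0.28 for Cox4i2 over Cox4i1, 0.046 to 0.35 for Cox6a2 over Cox6a1 and -0.20 to 0.043 for Ndufa4l2 over Ndufa4. All genes with an unadjusted p under 0.05 numbered 354 without BPA replicate 2 and 1167 without control replicate 3, against 698.

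Control and BPA libraries share replicate numbers, but same-numbered libraries did not deviate together (r across genes -0.37 to 0.070 in 4 pairs). Whether the numbers stand for litters or batches cannot be told from these values. With the replicate block 54 of the 82 genes were higher and 10 had an unadjusted p under 0.05, with 498 in place of 698 among all genes. With the replicate block and the offset Uqcr11 was at -0.0021 and Atp5b at -0.0024. The groups of 4 mice and the difference in depth limit the precision. Isoforms under 1 CPM rest on few reads.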

Other observations

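Ndufs5, a subunit gene of complex I on chromosome 4 (123712710 to 123718202), had 0 reads in all 8 libraries and is therefore not among the 82. The row BC002163, annotated by GENCODE as a processed pseudogene on chromosome 16 (42955631 to 42955949), had 12338 reads, 961 to 2135 per library, at 37.3 ± 0.845 CPM in the control mice and 39.4 ± 2.60 CPM in exposed mice (log2 fold change 0.081 ± 0.053). Of the 50-base windows of the longest Ndufs5 transcript, 31.1% occur in BC002163 and in no other annotated gene. The sources used here do not say how reads of this pair were assigned, and neither row is read as a level of Ndufs5. Of the 82 genes, 33 share at least 1 such window with another annotated gene and 6 share over 20% of them.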
